A study of Homo sapiens with 4 samples.

Results

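HFM1, SLCO5A1 and HHAT are 3 protein-coding genes with unrelated textbook roles, and they share higher levels in the libraries where RT followed tagmentation. They are 3 of the 33634 genes with a count in these data. They were chosen by their measured Post over Pre ratios, at least 2-fold in both pairs of libraries, so those ratios are given here as a description without a test. RNA was sequenced from 4 libraries of H9, a line of primed human pluripotent stem cells. Every library came from nuclei fixed with formaldehyde, and RT captured poly(A) RNA, that is, mRNA with a tail of adenosines. Tagmentation is the cutting and adapter-tagging of chromatin by the transposase Tn5, which is guided by antibodies to histone marks. RT was carried out either before it (Pre) or after it (Post), and for either order there was 1 library of RNA alone (RNA only) and 1 of nuclei in which DNA at H3K27me3 and H3K27ac was profiled as well (RNA+DNA). Pre and Post RNA only form the RNA pair, and Pre and Post RNA+DNA the RNA+DNA pair. The study varied this order to learn how profiling of chromatin and of the transcriptome affect each other in the same sample. It reported that transcriptome profiles and sensitivity were unaffected by the order, showing correlations between whole transcriptomes and numbers of genes. It is not stated which steps of tagmentation were applied to the RNA only libraries, nor whether the libraries shared a culture.

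HFM1 is a DNA helicase of meiosis, related to yeast Mer3, and is needed for crossovers between paired chromosomes. SLCO5A1 belongs to the organic anion transporting polypeptides, membrane proteins that carry bulky organic anions such as bile acids and steroid conjugates, although what SLCO5A1 itself carries is poorly known. HHAT is an acyltransferase of the endoplasmic reticulum that attaches palmitate to Hedgehog ligands, a step that full signalling by these ligands needs.

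In GRCh38, HFM1 lies on the minus strand of chromosome 1 from 91260766 to 91404856. It holds an intronic segment that resembles 28S ribosomal RNA in the sense direction of the gene. The segment is 366 bases long, lies in intron 4 of 38 from 91387226 to 91387591, and matches positions 4160 to 4525 of 28S ribosomal RNA at 99.7% identity, with 1 mismatch and 0 gaps. The 113 bases at the start of the HFM1 segment are shown beside 28S ribosomal RNA because they hold its single difference, written in capitals. The lines run 5′ to 3′ and come from the genome sequence, the first at chr21:8445305-8445417 on the plus strand and the second at chr1:91387479-91387591 on the minus strand.
28S rRNA: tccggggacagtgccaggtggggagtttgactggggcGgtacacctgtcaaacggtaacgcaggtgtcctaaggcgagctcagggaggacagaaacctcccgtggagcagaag
HFM1: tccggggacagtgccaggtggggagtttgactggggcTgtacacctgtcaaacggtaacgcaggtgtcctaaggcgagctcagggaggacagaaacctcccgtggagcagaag
The difference is G38T, with positions counted from 1 at the first base printed and the base of 28S ribosomal RNA given first. In the whole assembly the HFM1 segment had 25 alignments, 8 of which covered at least 95% of it. Of these 1 is HFM1 itself, and the other 7 had identities from 85.9% to 99.7%, 5 of them with 1 mismatch. A read from this stretch could therefore fit several places. For the single-cell data the study's methods kept uniquely mapped reads by a filter on mapping quality, and whether that filter was applied to these libraries is not stated.

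SLCO5A1 lies on the minus strand of chromosome 8 from 69667046 to 69834978, and HHAT on the plus strand of chromosome 1 from 210328252 to 210676296. SLCO5A1 also holds a 28S-like segment in the sense direction, 368 bases long in intron 6 of 9 from 69690014 to 69690381. It matches positions 3659 to 4030 of 28S ribosomal RNA at 95.4% identity, with 13 mismatches and 2 gap openings. Neither this segment nor that of HFM1 lies in an exon of an annotated transcript. HHAT had no such segment of at least 100 aligned bases.

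Total counts were 9379073 in Pre RNA only, 8960724 in Pre RNA+DNA, 6368721 in Post RNA only and 10089552 for Post RNA+DNA. Levels are given as RPM, each count scaled by its library's total. Each condition is 1 library, so no difference has a replicate check, and all intervals are 95% intervals for counting error only. All 8 pluripotency markers were detected in every library, at 29.7 to 562 RPM and summing to 1626 to 2132 RPM per library. Each of the markers of endoderm, mesoderm and neural ectoderm was at or below 4.76 RPM, with SOX17 and TBXT at 0 in 3 libraries each. A set of 6 genes carries the clone names FP236383 and FP671120. Genes were matched to GENCODE by symbol only, and these symbols had no match, so the place of these genes in the genome was not determined. The 6 genes made up 34.8% of all counts in Post RNA only and 10.7% to 15.8% elsewhere. Such a share lowers the RPM of all other genes, and relative log2 ratios below are therefore given after subtracting the median of the 11564 genes whose mean over the libraries was 10 RPM or more, following the addition of 1 RPM to every value. That median was −0.44 for Post over Pre in the RNA pair and −0.09 in the RNA+DNA pair.

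HFM1 was by far the most counted of the 3 genes. It had 9875 counts in Pre RNA only, 8594 in Pre RNA+DNA, 25154 in Post RNA only and 19953 for Post RNA+DNA. These counts correspond to 1053 RPM (interval 1032 to 1074), 959 RPM (939 to 980), 3950 RPM (3901 to 3999) and 1978 RPM (1950 to 2005). Both Post libraries lay above both Pre libraries, and 0.395% of all counts in Post RNA only were assigned to this meiotic gene. In bulk libraries, fewer cells of a type and less RNA per cell cannot be told apart.

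SLCO5A1 had 738 counts in Pre RNA only, 528 in Pre RNA+DNA, 1507 in Post RNA only and 1999 for Post RNA+DNA. Its levels in that order were 78.7 RPM (interval 73.1 to 84.6), 58.9 RPM (54.0 to 64.2), 237 RPM (225 to 249) and 198 RPM (190 to 207). The Post libraries were again the highest, and for this transporter they lay closer to each other than for HFM1.

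HHAT was the least counted, with 77 counts in Pre RNA only, 58 in Pre RNA+DNA, 187 in Post RNA only and 142 for Post RNA+DNA. Its levels were 8.21 RPM (interval 6.48 to 10.3), 6.47 RPM (4.91 to 8.37), 29.4 RPM (25.3 to 33.9) and 14.1 RPM (11.9 to 16.6) in that order. Both Pre libraries were below 10 RPM, and their intervals overlapped.

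**Figure D1:**
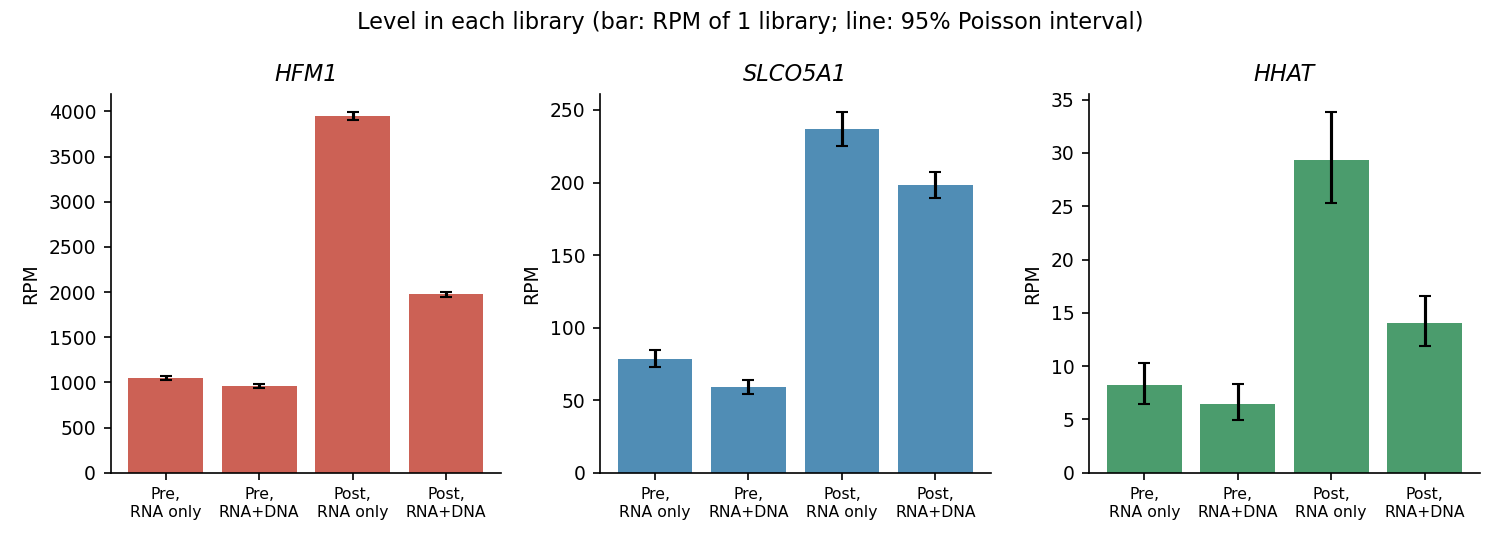
Level of HFM1, SLCO5A1 and HHAT in each of the 4 libraries, in RPM on linear axes that start at 0 and differ between genes, with 95% intervals for counting error. Each gene is highest in Post RNA only (3950, 237 and 29.4 RPM), followed by Post RNA+DNA (1978, 198 and 14.1 RPM), and lowest in Pre RNA+DNA.

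The order of the libraries was the same for all 3 genes, with Post RNA only first, then Post RNA+DNA, Pre RNA only and Pre RNA+DNA. For HFM1 the ratios between neighbours in that order were 1.997, 1.88 and 1.10. For SLCO5A1 they were 1.19, 2.52 and 1.34. HHAT had 2.09, 1.71 and 1.27, and its last step, between the Pre libraries, had an interval of 0.890 to 1.82 and so was not detectable at this depth. The largest step of SLCO5A1 thus separated Post from Pre, whereas HFM1 had its largest step between the Post libraries, as did HHAT, whose intervals for the first and second step overlapped.

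Per kilobase of annotated exon, HFM1 also had the highest level. It had 181 RPM per kilobase in Pre RNA only, 165 in Pre RNA+DNA, 679 in Post RNA only and 340 for Post RNA+DNA. SLCO5A1 ranged from 5.95 to 23.9 and HHAT from 0.974 to 4.42 RPM per kilobase. Reads from introns may be part of the counts, so this scale is approximate.

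For Post over Pre, the contrast that chose the genes, HFM1 had a ratio of 3.75 (interval 3.66 to 3.84) in the RNA pair and 2.06 (2.01 to 2.12) in the RNA+DNA pair. SLCO5A1 had 3.01 (2.75 to 3.29) and 3.36 (3.05 to 3.71) in the same order. HHAT had 3.58 (2.73 to 4.73) and 2.17 (1.59 to 3.004). The ratio of SLCO5A1 was thus of similar size in both pairs, with overlapping intervals, that of HFM1 was larger in the RNA pair, and that of HHAT was larger there too, but with overlapping intervals. Relative to the median gene, the log2 ratios of Post over Pre were 2.34 and 1.14 for HFM1, 2.01 and 1.83 for SLCO5A1, and 2.16 and 1.11 for HHAT. The RNA pair exceeded the RNA+DNA pair by 1.21 for HFM1, 1.05 for HHAT and 0.19 for SLCO5A1 on this scale. This difference between pairs has no replicate check either.

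Of all genes past the filter of 10 RPM, 0.692% were at least 2-fold higher in Post in the RNA pair, 0.104% in the RNA+DNA pair, and 0.104%, or 12 genes, in both. All 3 genes are among the 12 because they were chosen so. From the highest ratio down, HFM1 stood at place 13 in the RNA pair and 10 in the RNA+DNA pair, SLCO5A1 at 27 and 4, and HHAT at 21 and 12. HHAT, below 10 RPM in both Pre libraries, passed the filter only through its Post values. The filter thus partly sets its call and its places. HHAT was nearest to the threshold, since the smaller of its log2 ratios, before subtracting the median, was 1.01. The other gene just inside was the histone gene HIST2H2AA3 with 1.02, and just outside were the histone genes HIST1H2BC with 0.98 and HIST1H2BK with 0.96.

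**Figure D2:**
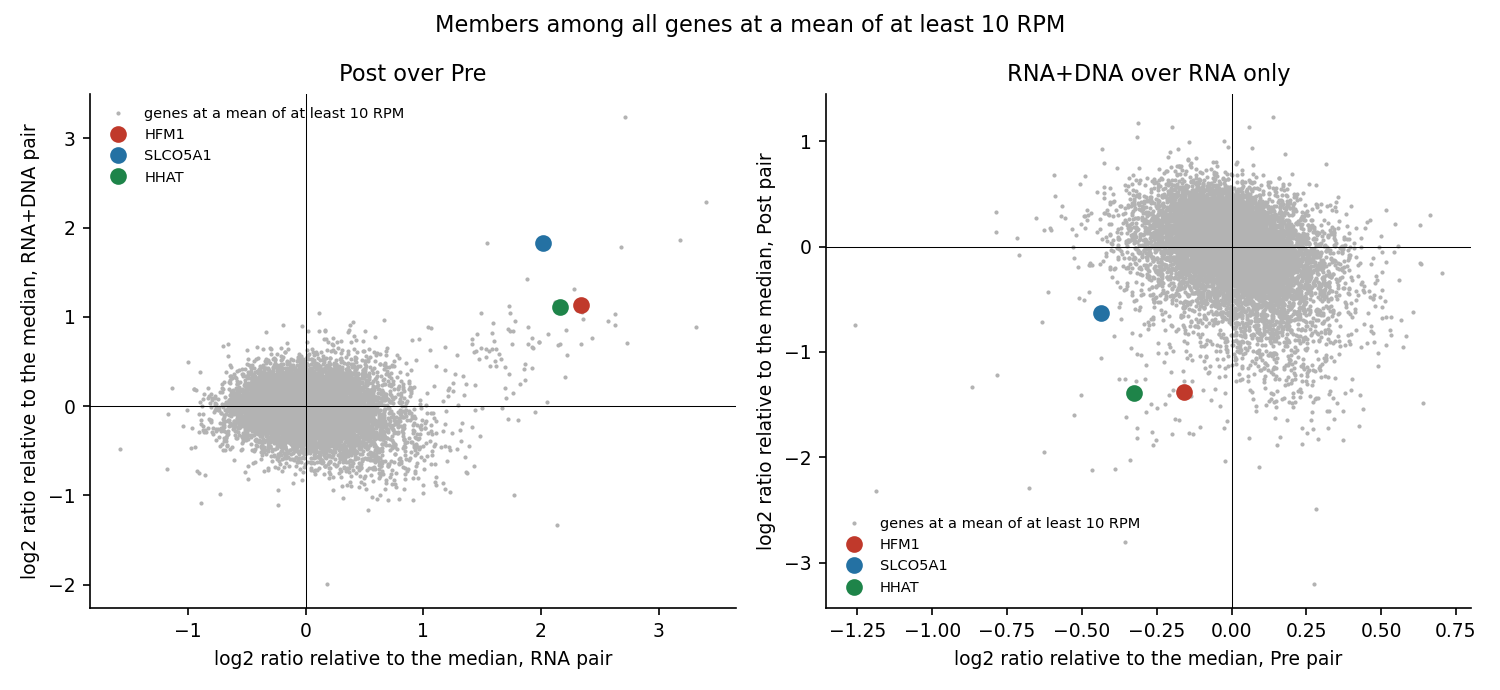
Relative log2 ratios of each gene with a mean level of at least 10 RPM (grey points), with HFM1, SLCO5A1 and HHAT in colour. The first panel sets Post over Pre in the RNA+DNA pair against the RNA pair, where the 3 genes lie in the upper right from 2.01 to 2.34 and from 1.11 to 1.83, and the second sets RNA+DNA over RNA only after tagmentation against that before it, where HFM1 and HHAT lie low, at −1.38 and −1.39.

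The profiling of DNA in the same nuclei was a factor that the choice of the genes did not use directly, although the same 4 libraries enter. Of the 3 genes, HHAT was at least 2-fold lower with DNA profiling in Post, where 0.77% of all genes with a mean level of at least 10 RPM were, and none was in Pre, where 0.0173% were. As given above, HHAT passed that filter only through its Post values. Before tagmentation the ratio of RNA+DNA over RNA only was 0.911 (interval 0.885 to 0.938) for HFM1, 0.749 (0.668 to 0.839) for SLCO5A1 and 0.788 (0.551 to 1.12) for HHAT. HFM1 and SLCO5A1 were lower with DNA profiling beyond counting error, and for HHAT no difference was detectable. After tagmentation the ratio was 0.501 (0.491 to 0.510) for HFM1, 0.837 (0.783 to 0.896) for SLCO5A1 and 0.479 (0.383 to 0.599) for HHAT. HFM1, at a log2 ratio of −0.998 before subtracting the median, fell just short of the 2-fold threshold.

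The median gene moved the other way, with log2 ratios of RNA+DNA over RNA only of 0.03 in Pre and 0.38 in Post. Relative to it the Post values were −1.38 for HFM1, −1.39 for HHAT and −0.63 for SLCO5A1, and the Pre values were −0.16, −0.33 and −0.44 in the same order. From the highest ratio down, HFM1 stood at place 11474 of 11564 in Post, HHAT at 11480 and SLCO5A1 at 10802. SLCO5A1, in contrast, was nearer the low end in Pre, at place 11512. Since Post RNA only serves both this contrast and that of Post over Pre, a high value in that library raises one and lowers the other. Post RNA only was also the library with 34.8% of its counts in the FP236383 and FP671120 genes. With totals that left these genes out, the median log2 ratio in Post was 0.02. The relative Post values were then −1.38 for HFM1, −1.40 for HHAT and −0.64 for SLCO5A1. Any part of that share other than through the totals was not tested.

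The genes whose profiles over the 4 libraries came nearest were histone genes and genes named after clones. Nearness was the largest absolute difference, over the 4 libraries, between log2(RPM + 1) values from which each library's median and each gene's own mean had been subtracted. Nearest to HFM1 were HIST1H2BK at 0.07, HIST1H3F at 0.08 and FP671120.4 at 0.11. HHAT was the fifth nearest to HFM1, at 0.14. Nearest to HHAT were FP671120.4 at 0.07, HFM1 at 0.14 and HIST1H3F at 0.15. The intervals of the log2 ratios of HHAT had half-widths of 0.32 to 0.51, so these distances and their order lie within counting error. HIST1H2BK had 106 counts in Pre RNA only and 99 in Pre RNA+DNA, so its place ahead of HIST1H3F is uncertain too. HIST1H2BK and HIST1H3F encode core histones H2B and H3, which package DNA, and had 11.3 and 14.2 RPM in Pre RNA only and 45.2 and 56.4 RPM in Post RNA only. FP671120.4 had 20192 RPM in Pre RNA only, 16799 in Pre RNA+DNA, 64801 in Post RNA only and 35251 for Post RNA+DNA, and it is 1 of the 6 genes whose share is given above.

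SLCO5A1 had no gene as near. Its nearest were HIST1H2BC at 0.40, AC124312.3 at 0.43 and HIST2H2BF at 0.43, and it was the 41st nearest gene to HFM1, at 0.46. AC124312.3 had 18.1 RPM in Pre RNA only, 15.0 in Pre RNA+DNA, 40.0 in Post RNA only and 51.9 for Post RNA+DNA. Histone genes have near-identical copies, so the split of reads among them is uncertain, and a likeness over 4 points is a description.

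Intronic segments like the 45S precursor of ribosomal RNA, of at least 100 aligned bases, were found in 66 genes with a mean level of at least 10 RPM. A sense segment was found in 39 of them and an antisense segment in 29, with 2 genes holding both. At least 2-fold higher in Post were 5 of the 66 in the RNA pair and 2 in the RNA+DNA pair, the 2 being HFM1 and SLCO5A1. Without these, 3 of 64 genes (4.69%) were higher in the RNA pair, against 0.692% of all genes, and 0 in the RNA+DNA pair, against 0.104%. Of the 3, UNC45B reached a mean of 10 RPM only through Post RNA only, so the filter itself partly sets this share. With a filter of 1 RPM the share in the RNA pair was 3 of 81 genes (3.70%), against 0.594% of all genes. The medians of the 64 relative log2 ratios were −0.10 and 0.07, with 20 and 40 genes above the median of all genes. With at least 200 aligned bases and again without HFM1 and SLCO5A1, 1 of 35 genes (2.86%) was higher in the RNA pair and 0 in the RNA+DNA pair.

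The genes with the closest sense segments are shown here singly, and this choice was made after their values were seen. At an identity of at least 95% there were 6 such genes, HFM1 and SLCO5A1 included. PDE3A, a cyclic nucleotide phosphodiesterase, holds 148 bases of 18S ribosomal RNA at 100% identity and had 240 RPM in Pre RNA only, 193 in Pre RNA+DNA, 961 in Post RNA only and 306 for Post RNA+DNA. Its Post over Pre ratios were 4.01 in the RNA pair and 1.59 in the RNA+DNA pair, or 2.44 and 0.76 as relative log2 ratios. PDE3A thus shared the high value of HFM1 in Post RNA only and lay lower than HFM1 in the RNA+DNA pair. AAMDC had relative log2 ratios of 0.78 and 0.57, PID1 had 0.24 and 0.12, and PMF1 had −0.10 and 0.24, in the RNA pair and the RNA+DNA pair. Without HFM1 and SLCO5A1 the medians of the other 4 genes were 0.51 and 0.40. Of these 4 genes, 3 had a relative log2 ratio above 0 in the RNA pair and 4 in the RNA+DNA pair. With at least 200 aligned bases 2 of the 4 were left, PDE3A not among them, and 0 were at least 2-fold higher in either pair.

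Beyond these, UNC45B and ANKRD30BL were at least 2-fold higher in the RNA pair, and both were named after their values were seen. UNC45B, a chaperone of myosin, holds its 28S-like segment antisense and had 3.63 RPM in Pre RNA only, 2.68 in Pre RNA+DNA, 33.1 in Post RNA only and 5.35 for Post RNA+DNA. ANKRD30BL had 28.3, 20.5, 108 and 31.7 RPM in the same order. Their relative log2 ratios were 3.32 and 2.34 in the RNA pair and 0.88 and 0.70 in the RNA+DNA pair. The part of reads from ribosomal RNA in the values of HFM1 and SLCO5A1 was not tested, since the counts do not say where in a gene a read lies.

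**Figure D3:**
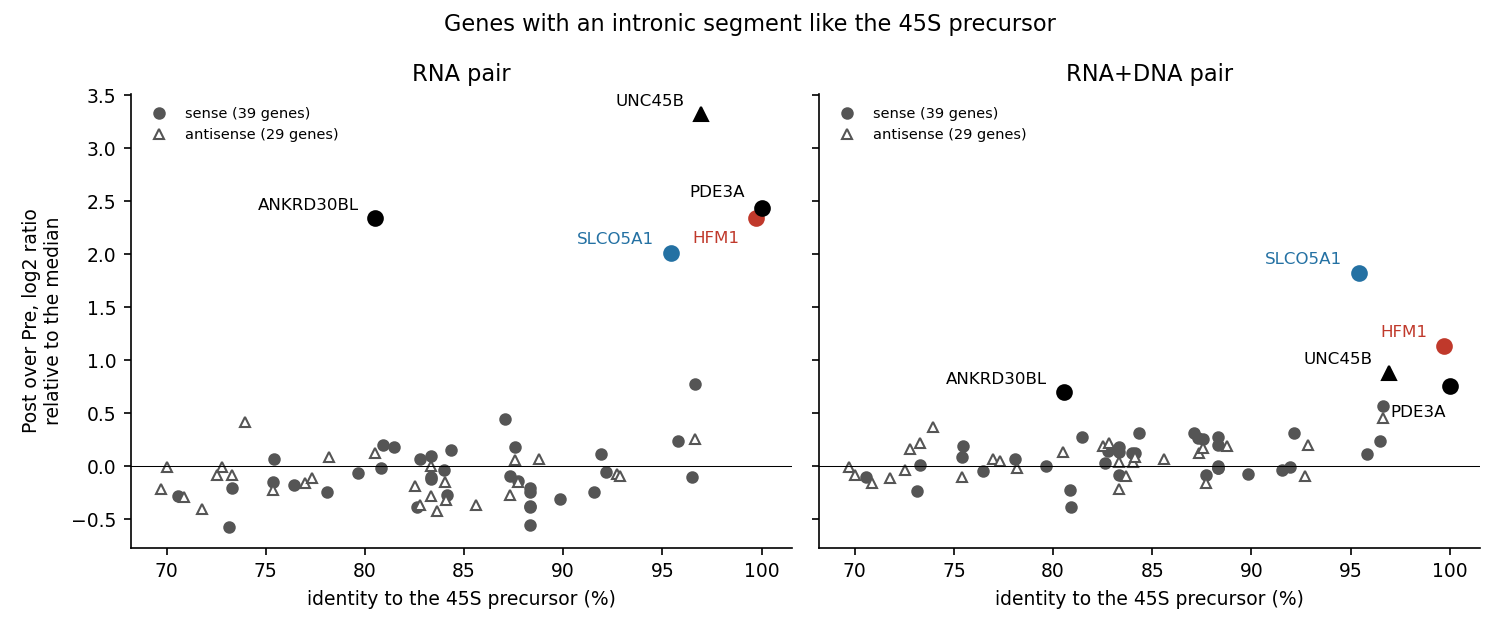
Relative log2 ratio of Post over Pre against the identity (in percent) of the best segment to the 45S precursor, for the 66 genes with an intronic segment and a mean of at least 10 RPM, in the RNA pair (left) and the RNA+DNA pair (right). Circles are sense and triangles antisense segments, and 2 genes with both have a point for each. HFM1 (99.7%) and SLCO5A1 (95.4%) lie high in both panels, PDE3A, UNC45B and ANKRD30BL are high in the left panel at 2.44, 3.32 and 2.34, and most other genes lie near 0.

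Genes around the 3 loci did not share the difference in size, with partial exceptions beside SLCO5A1 and, at few counts, beside HFM1. Within 500 kb lay 12 neighbours with a mean level of at least 1 RPM, 5 around HFM1, 3 around SLCO5A1 and 4 around HHAT, and 0 of them were at least 2-fold higher in Post in either pair. At that mean, 0.594% of all genes were higher in the RNA pair and 0.313% in the RNA+DNA pair. A set of 12 genes is too small for a count of 0 to differ from these shares. The median relative log2 ratio of the neighbours was 0.04 in the RNA pair and 0.09 in the RNA+DNA pair, with ranges of −0.21 to 1.04 and −0.30 to 0.89.

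SULF1, which encodes an extracellular sulfatase of heparan sulfate, lies on the opposite strand and ends 6131 bases from the 3′ end of SLCO5A1. It had 74.0 RPM in Pre RNA only, 70.3 in Pre RNA+DNA, 113 in Post RNA only and 122 for Post RNA+DNA. Its Post over Pre ratios were 1.52 (interval 1.37 to 1.69) in the RNA pair and 1.74 (1.58 to 1.92) in the RNA+DNA pair, and its relative log2 ratios of 1.04 and 0.88 were nearer to SLCO5A1 than those of any other neighbour of that gene. On the 5′ side, PRDM14, a regulator of pluripotency, had −0.21 and −0.19, and NCOA2, a coactivator of nuclear receptors, had −0.13 and 0.07.

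Around HFM1, the nearest neighbour was CDC7, a kinase that starts DNA replication, 95995 bases on the 5′ side. CDC7 had 63.9 RPM in Pre RNA only, 68.7 in Pre RNA+DNA, 40.8 in Post RNA only and 55.8 for Post RNA+DNA, with relative log2 ratios of −0.20 in both pairs. TGFBR3, a coreceptor for TGF-beta ligands, had 0.04 and 0.04, and on the 3′ side the zinc finger gene ZNF644 had 0.04 and 0.10 and the long noncoding RNA LINC02609 had −0.09 and 0.34. The highest values around HFM1, 0.64 and 0.89, were those of LINC02788, picked out after its values were seen, which had at most 2.36 RPM. Around HHAT, the potassium channel gene KCNH1 ends 527 bases from the 3′ end on the opposite strand and had 10.3, 10.04, 9.58 and 11.2 RPM in Pre RNA only, Pre RNA+DNA, Post RNA only and Post RNA+DNA. Its relative log2 ratios were 0.34 and 0.24. On the 5′ side, SERTAD4 had 0.13 and −0.07, and SYT14, of the synaptotagmin family, had 0.14 and 0.20. In RPM, CDC7, the nearest gene to HFM1, was thus lower in both Post libraries than in either Pre library. The median gene was also lower in Post, and relative to it CDC7 had the −0.20 given above. KCNH1, the nearest to HHAT, stayed within its counting error.

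**Figure D4:**
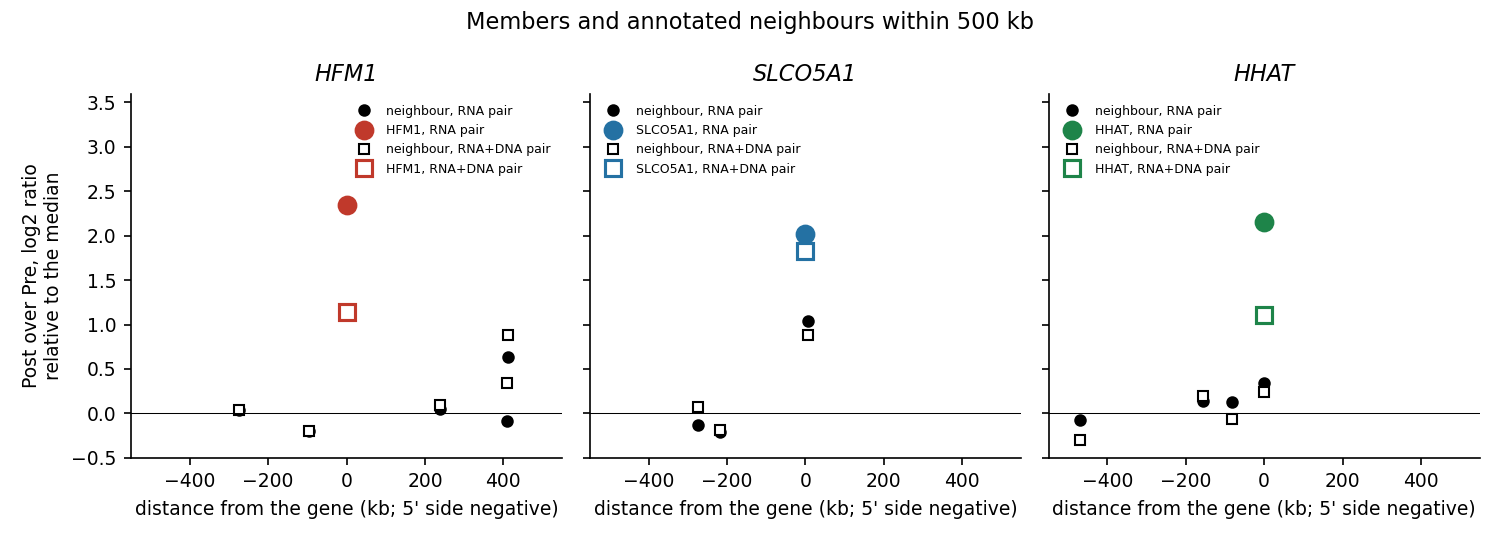
Relative log2 ratio of Post over Pre of HFM1, SLCO5A1 and HHAT (coloured, at 0 kb) and of their measured neighbours within 500 kb (black), against the distance in kilobases, negative on the 5′ side. Circles are the RNA pair and open squares the RNA+DNA pair. The 12 neighbours lie between −0.30 and 1.04, with SULF1 next to the 3′ end of SLCO5A1 at 1.04 and 0.88.

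The annotation lists 10 further genes that overlap the 3 genes in whole or in part, all 10 on the opposite strand, and 0 of these names occur in the count data. Whether the counting used strand is not given in the sources used here, so reads from these antisense genes cannot be told apart from those of HFM1, SLCO5A1 and HHAT.

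In structure all 3 genes were long and held few runs of A for their length, while exonic length and number of introns varied. Of the 3, HFM1 and SLCO5A1 also shared an intronic 28S-like segment, as given above. HFM1 spans 144091 bases, SLCO5A1 167933 and HHAT 348045, at percentiles 79.9, 83.6 and 93.8 of the 10223 placed genes with a mean level of at least 10 RPM. Their exonic lengths of 5814, 9907 and 6645 bases lay at percentiles 45.7, 78.3 and 54.7, and their 38, 9 and 11 introns at percentiles 97.2, 47.0 and 57.1. Runs of at least 12 A on the sense strand, to which a poly(T) primer could pair, numbered 11 in HFM1, 14 in SLCO5A1 and 23 in HHAT. Per 100 kb these were 7.63, 8.34 and 6.61, at percentiles 28.1, 31.7 and 22.1, so each gene had fewer per length than the median gene. The longest run of A was 4 bases within the 28S-like segment of HFM1 and 3 in the 200 bases on its 3′ side. For SLCO5A1 these were 3 and 6.

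In the families and pathways of the 3 genes, 1 SLCO transporter and 1 Hedgehog pathway gene were at least 2-fold apart, each in 1 pair. Of 35 genes of meiotic crossover and synapsis in the count data, 30 reached a mean of 1 RPM, and 0 were at least 2-fold apart in either direction in either pair. In comparison, 0.594% of all genes at that mean were higher and 2.92% lower in the RNA pair, and 0.313% and 0.276% in the RNA+DNA pair. A list this short is too small for a count of 0 to differ from these shares, which also apply to the lists below. The median log2 ratios of the 30 genes, relative to the median of all genes at that mean, were −0.12 and 0.01, with 10 and 16 genes above it. Among the most abundant were C11orf80, which encodes a partner of SPO11 in making meiotic breaks, CCNB1IP1, a ubiquitin ligase of crossover sites, and MND1, of strand exchange. CCNB1IP1 had 51.7 RPM in Pre RNA only, 53.0 in Pre RNA+DNA, 68.0 in Post RNA only and 57.7 for Post RNA+DNA, or relative log2 ratios of 0.83 and 0.21. C11orf80 had −0.49 and 0.02, and MND1 had −0.16 and −0.10.

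Markers of germ cells, in which HFM1 is known to act, were low. DAZL had 16.0 RPM in Pre RNA only, 16.3 in Pre RNA+DNA, 12.1 in Post RNA only and 17.0 for Post RNA+DNA. DDX4 had at most 2.88 RPM. The sum over the germ cell list was 26.0, 24.3, 19.2 and 24.7 RPM in the same order. For Post over Pre this list had relative medians of −0.02 in the RNA pair and 0.10 in the RNA+DNA pair, over the 3 markers with a mean of 1 RPM or more. The part of germ cells in the level of HFM1 was not tested.

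Among helicases of the Ski2-like and RecQ families, to the first of which HFM1 belongs, 0 of 15 were at least 2-fold apart in either pair. This count is near the shares of all genes given above. The relative medians were −0.08 and −0.01. The most abundant were SNRNP200 of the spliceosome, with relative log2 ratios of 0.10 and −0.01, ASCC3 with 0.27 and 0.04, the Werner syndrome helicase WRN with −0.14 and −0.04, and MTREX of the nuclear exosome with −0.05 and −0.05.

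In the family of SLCO5A1, 1 gene passed the threshold in 1 pair. Of the 11 other SLCO transporters, 0 were at least 2-fold higher in the RNA pair and 1 in the RNA+DNA pair, and none was lower. The exception was SLCO1B3, a hepatic transporter, which had 28, 7, 16 and 28 counts in Pre RNA only, Pre RNA+DNA, Post RNA only and Post RNA+DNA, and it was picked out after its values were seen. The relative medians of the 11 were 0.06 and 0.20. SLCO3A1, the most abundant, had 163, 166, 85.7 and 166 RPM in the same order of libraries and relative log2 ratios of −0.48 and 0.10. SLCO1A2 had 0.13 and −0.29, SLCO6A1 had 0.14 and 0.18, and SLCO4C1 had −0.16 and 0.14.

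Of 23 Hedgehog pathway genes, 19 had a mean of at least 1 RPM. Of these 1 was at least 2-fold higher in the RNA pair and 0 in the RNA+DNA pair, against 0.594% and 0.313% of all genes. The relative medians were −0.19 and 0.07. The ligands that HHAT modifies were hardly detected, with SHH, IHH and DHH near or below 1 RPM in every library. Of the other pathway genes, the transcription factors GLI2 and GLI3 had relative log2 ratios of −0.37 and 0.31 and of −0.16 and 0.21. The glypican GPC3, an inhibitor of the pathway, had −0.21 and 0.11, and the kinesin KIF7 had −0.11 and 0.26.

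HHAT belongs to the membrane-bound O-acyltransferases. Of 10 other genes of this family, 9 reached a mean of 1 RPM, and 0 were at least 2-fold apart in either pair. This count is near the shares of all genes given above. The relative medians were −0.18 and −0.06. MBOAT2 had relative log2 ratios of −0.20 and 0.15, LPCAT3 had −0.26 and −0.17, MBOAT7 had −0.29 and −0.48, and MBOAT1 had −0.48 and −0.02. These enzymes remodel phospholipids, whereas PORCN, which acylates Wnt ligands as HHAT does Hedgehog ligands, had −0.10 and −0.61 at 2.04 to 4.02 RPM.

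**Figure D5:**
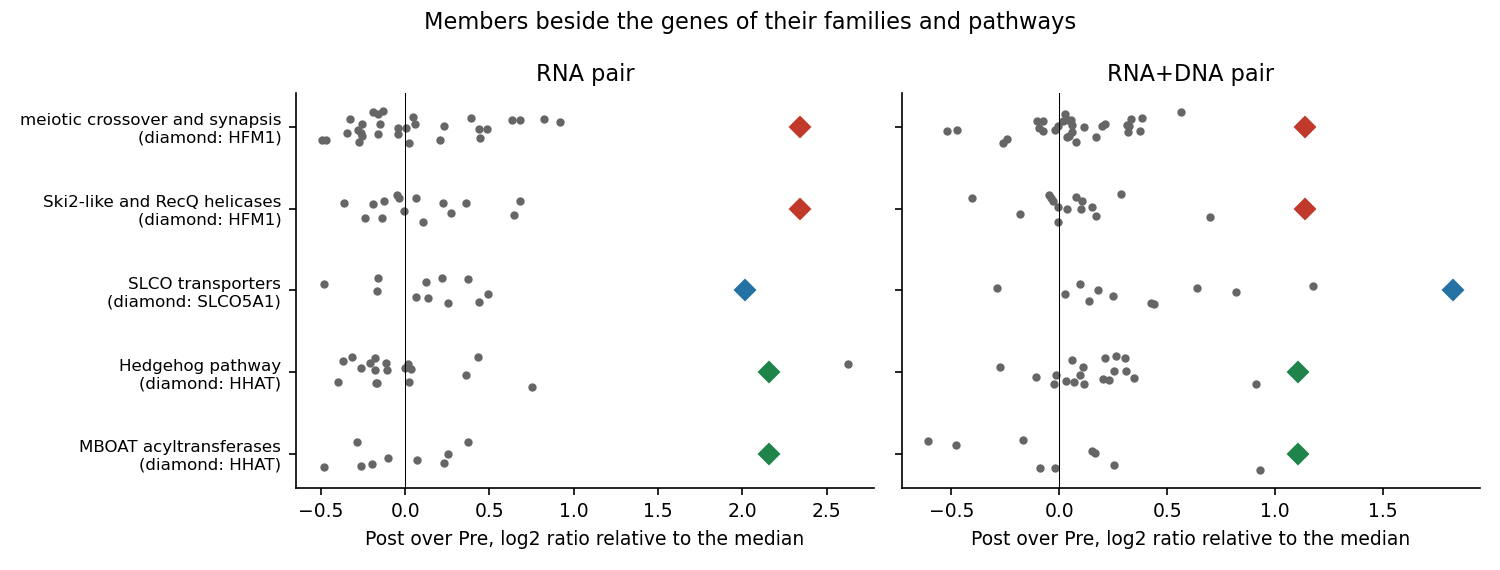
Relative log2 ratios of Post over Pre for the measured genes of 5 lists, each beside its member (meiotic genes and helicases with HFM1, SLCO transporters with SLCO5A1, Hedgehog pathway and acyltransferases with HHAT), in the RNA pair and the RNA+DNA pair. Points are the list genes, spread vertically for legibility, and diamonds are HFM1 at 2.34 and 1.14, SLCO5A1 at 2.01 and 1.83, and HHAT at 2.16 and 1.11.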

How the data were processed

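The authors deposited counts per gene symbol for the 4 RNA libraries, as whole numbers without normalization. Per the labels, the submitters' processing notes name the aligners STAR 2.7.11b, Bowtie2 2.5.3 and Bowtie 1.3.1, the trimmer Trim Galore 0.6.10, SAMtools and the build GRCh38. The study's methods describe alignment, a filter for uniquely mapped reads and removal of duplicates for the single-cell data, and it is not said which of these steps the present libraries went through. The annotation and strand setting of the counting are not given in the sources used here. A further 60 barcode columns, which no label assigns to a condition, were not used.

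Counts were divided by library totals (6368721 to 10089552) to give RPM, and ratios on the log2 scale used values with 1 RPM added. Intervals were exact Poisson intervals for RPM and exact conditional binomial intervals for ratios, at 95% and for counting error only. With 1 library per condition no test was run. A gene was called by size, at least 2-fold apart before subtracting the median at a mean level of 10 RPM or more (1 RPM for lists and neighbours), and this step was checked on simulated counts. By symbol, 88.4% of genes at 10 RPM or more could be placed in GENCODE release 44. The 45S precursor on chromosome 21, from 8433222 to 8446572, was aligned with BLAST 2.17.0 (E-value at most 1e-05). Members and lists were chosen with earlier results of these data known. Named genes were the 3 members, the 3 nearest profiles of each, the 2 nearest measured genes per side, the 4 most abundant genes per list, and the 2 genes just inside and outside the threshold, with exceptions said. Some listed genes are not reported here. Alternatives were TMM (edgeR 4.0.16) and median-of-ratios scaling, other totals, pseudocounts, filters and folds, and thinning. Further software was samtools 1.23.1, R 4.3.3 with limma 3.58.1, and Python 3.11.15 with scipy 1.17.1, pandas 2.3.3, matplotlib 3.10.9 and numpy 2.4.6.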

Additional observations from a re-analysis of the deposited data

How the results depend on the processing

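Members kept their direction under every alternative run, and the values that moved beyond counting error were these. The relative log2 ratio of HFM1 for Post over Pre in the RNA pair was 2.29 with a pseudocount of 5 RPM, 2.27 with a filter of 1 RPM and 2.13 without a filter, and in the RNA+DNA pair it was 1.09 and 1.05 with the last 2 settings. That of HFM1 for RNA+DNA over RNA only in Post was −1.33, −1.34 and −1.24 under the same 3 settings. Without a filter, SLCO5A1 had 1.80 for Post over Pre in the RNA pair and −0.50 for RNA+DNA over RNA only in Post. At least 2-fold higher in Post in both pairs were 12 genes, against 23 with totals without the 20 most abundant genes, 23 with totals without the FP236383 and FP671120 genes, 20 with a filter of 1 RPM, 46 at 1.5-fold, 4 at 3-fold and 5 with a filter of 50 RPM. The 3 members were among them, except that HHAT was lost with a pseudocount of 5 RPM and with a filter of 50 RPM (2 members left each time) and that 0 members were called at 3-fold. A fit of the order of RT with the pair as a block would leave 1 residual degree of freedom and was not run, because the members were chosen by this contrast. Without any 1 library only 1 pair is left for a contrast, and each pair's values are given singly in the report. The 58 to 187 counts of HHAT limit its precision.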
